A study of Mus musculus with 8 samples.

Results

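The genes described here are 10 genes of meningeal and perivascular fibroblasts: the collagen chains Col1a1, Col1a2 and Col3a1, the small proteoglycans Dcn and Lum, the hyaluronan-degrading Cemip, the growth factors Bmp6 and Igf2, the GABA transporter gene Slc6a13 and the prostaglandin synthase gene Ptgds. They were chosen by symbol as known fibroblast genes, with earlier results of these data known, and all 10 were found among the 31417 genes of the count table. All 10 passed the filter on low counts, which left 16228 genes for testing. The study compared whole hippocampal tissue of Dclk3 knockout (KO) mice with that of wild-type (WT) mice by sequencing of stranded poly(A) RNA. Both genotypes were 12 months old, with 4 libraries each, and every library came from 1 hippocampus. The strain, the litters, the allele and the part of Dclk3 that was removed were not stated in the labels. Nor do the labels say that the libraries of a genotype came from separate animals, so p-values here describe variation among these samples alone, and some of it may be technical.

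Fibroblasts of the brain sit in the pia and arachnoid, in the stroma of the choroid plexus and in sheaths around the larger vessels. They make the fibrillar collagens and the proteoglycans that bind collagen, and the arachnoid and pia also carry transporters and enzymes that mark them, among them the GABA and taurine transporter encoded by Slc6a13. Some of the genes have other sources in brain: Ptgds is also made by oligodendrocytes and choroid plexus and Igf2 by choroid plexus. In bulk tissue, fewer cells of a type and less RNA per cell cannot be told apart.

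Total counts per library lay between 29301974 and 36552757. The label check held: Dclk3, the targeted gene, stood at 26.7 ± 8.51 CPM over the WT and 7.71 ± 1.42 CPM over the KO libraries (mean ± SD, n = 4 each), and no KO library reached the lowest WT library. CPM is the count scaled to the library's total after TMM normalization. A gene was called when the adjusted p of edgeR's quasi-likelihood test fell under 0.05, and 0 of the 16228 genes (0.0%) were called, while 1000 (6.16%) had an unadjusted p under 0.05. Dclk3 itself was not called, at a log2 fold change of KO over WT of -1.79 (SE 0.22; edgeR adjusted p = 0.234). The absence of a call in this fit therefore does not show that a gene is unchanged. DESeq2 had 1001 genes at an unadjusted p under 0.05 and called 5, namely Dclk3, Col6a4, Zcchc7, Eml5 and Ftx, none of them among the 10. Markers of hippocampal neurons were present in every library, at 1209 to 1513 CPM summed over 12 genes.

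None of the 10 genes was called between the genotypes. For 9 of them the genotypes overlapped: libraries of both genotypes, foremost WT replicate 3, KO replicate 1 and KO replicate 4, were high, joined by WT replicate 2 for the collagens and Lum. Cemip differed from the rest, with a lower spread and all 4 KO libraries above all 4 WT libraries, at 46.8 ± 6.15 against 36.62 ± 2.20 CPM. The spread of the other 9 over the 8 libraries was large for this table: the SD of log2 CPM lay between the 87.3rd percentile of tested genes for Dcn and the 99.6th for Col3a1 and Ptgds, and at the 67.9th for Cemip.

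Sequence before a transcription start is shown for 3 genes with different library patterns. Promoter windows were matched by symbol for 7 of the 10 genes, all but Col1a1, Dcn and Lum, from RefSeq on GRCm38.p6. The 250 bases before a transcription start are shown for Col3a1, the collagen with the widest spread, for Slc6a13, which was high in 3 libraries, and for Cemip, whose genotypes did not overlap. None of these windows overlaps an annotated exon. Slc6a13 has 3 windows in the table. The one shown lies before its second start, inside the annotated gene, because the window before the first start overlaps exons by 61 bases; that first window held GGGCGG at 187 and 50 bases and no CCAAT. Capitals mark the letters TATAAA of the TATA box, CCAAT of the CAAT box and GGGCGG of the GC box, each searched on both strands, and each sequence reads 5′ to 3′ on the gene's strand.

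Col3a1, chr1:45311288-45311537, plus strand: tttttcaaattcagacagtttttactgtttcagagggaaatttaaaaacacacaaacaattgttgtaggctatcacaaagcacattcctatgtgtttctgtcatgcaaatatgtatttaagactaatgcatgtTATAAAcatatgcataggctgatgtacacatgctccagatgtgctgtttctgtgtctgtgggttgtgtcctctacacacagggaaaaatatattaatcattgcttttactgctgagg

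Slc6a13, chr6:121300490-121300739, plus strand: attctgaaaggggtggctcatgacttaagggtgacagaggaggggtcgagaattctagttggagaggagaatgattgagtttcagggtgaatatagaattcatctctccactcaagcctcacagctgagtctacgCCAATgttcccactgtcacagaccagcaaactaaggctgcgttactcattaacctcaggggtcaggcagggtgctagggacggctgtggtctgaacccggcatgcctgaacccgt

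Cemip, chr7:84086506-84086755, minus strand: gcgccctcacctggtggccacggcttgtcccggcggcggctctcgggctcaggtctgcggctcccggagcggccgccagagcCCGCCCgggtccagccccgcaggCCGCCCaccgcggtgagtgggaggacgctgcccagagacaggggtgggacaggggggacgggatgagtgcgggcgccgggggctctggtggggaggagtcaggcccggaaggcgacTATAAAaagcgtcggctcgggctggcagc

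The windows differed in composition, with 35.2% G and C bases for Col3a1, 51.6% for Slc6a13 and 75.2% for Cemip. Col3a1 had TATAAA 117 bases before its start and Cemip 29 bases before. Cemip also had GGGCGG on the opposite strand at 168 and 145 bases, and Slc6a13 had CCAAT at 115 bases. Over all 12 windows of the 7 genes, TATAAA was found for 2 genes (Col3a1 and Cemip), CCAAT for 3 (Col1a2, Igf2 and Slc6a13) and GGGCGG for 5 (Bmp6, Cemip, Col1a2, Igf2 and Slc6a13). Counted by window, these were 2, 3 and 6 of the 12. Among 32851 promoter windows of this length, 12.4% held TATAAA, 33.8% CCAAT and 32.7% GGGCGG. No 2 matches overlap in the printed windows, and a match is a description of the sequence and not evidence of a bound factor.

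The collagen chains came first among the structural genes. Col1a1 (ENSMUSG00000001506, mm10 11:94936224 to 94953042, plus strand) and Col1a2 (ENSMUSG00000029661, 6:4504814 to 4541544, plus strand) encode the 2 kinds of chain of type I collagen, the main fibril of connective tissue. Col1a1 stood at 10.97, 25.3, 21.3 and 8.20 CPM in WT replicates 1 to 4 and at 15.3, 8.795, 7.16 and 27.7 CPM in KO replicates 1 to 4. Col1a2 stood at 15.6, 29.2, 42.8 and 13.3 CPM in the WT libraries and at 27.75, 13.3, 13.5 and 52.95 CPM in the KO libraries, in the same order. For both genes WT replicates 2 and 3 and KO replicates 1 and 4 were the 4 highest libraries, and the genotypes overlapped throughout. The gap below those 4 libraries was 1.40-fold for Col1a1 and 1.78-fold for Col1a2. The log2 fold change of KO over WT was -0.15 (SE 0.52) for Col1a1 and 0.09 (SE 0.57) for Col1a2, with edgeR adjusted p = 0.965 and 0.981. The approximate interval of 2 SE ran from -1.19 to 0.88 for Col1a1, so differences inside it could not be told from 0 with these libraries.

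Col3a1 (ENSMUSG00000026043, 1:45311538 to 45349706, plus strand) encodes the chain of type III collagen, which forms thin fibrils with type I. It stood at 3.81, 17.05, 12.3 and 3.04 CPM in WT and at 8.38, 2.55, 2.46 and 12.2 CPM in KO. The same 4 libraries were highest as for the type I chains, with a gap of 2.20-fold below them, and the genotypes overlapped. Its highest library held 6.94 times the level of its lowest, the widest ratio of the 10. Counts were low enough to matter in the lowest library, where 71 counts have an exact Poisson interval (95%) of 55.5 to 89.6, which covers counting error only. Its log2 fold change of -0.50 (SE 0.73) was not called (edgeR adjusted p = 0.909). Without WT replicate 2, the highest library, it was 0.01.

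**Figure D1:**
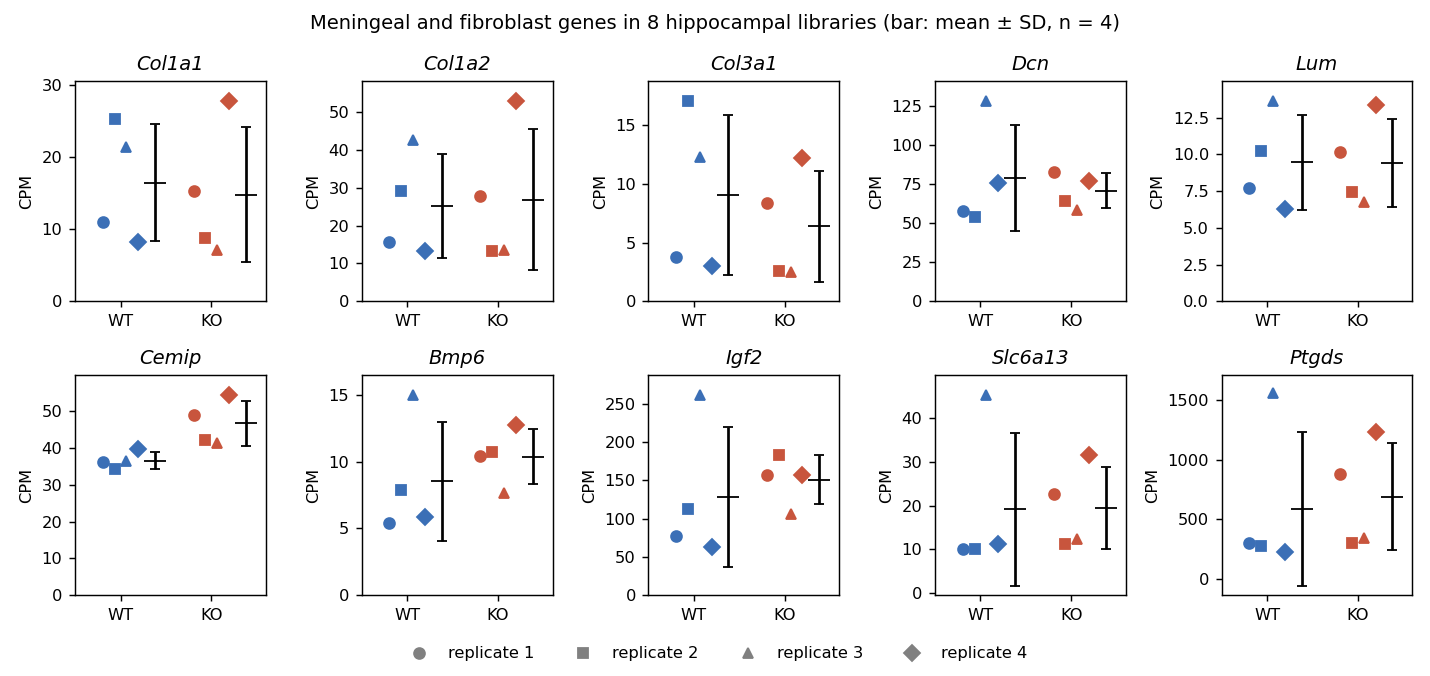
CPM (y axis, from 0, or from just below 0 for Slc6a13 and Ptgds) of the 10 genes in the 4 WT (blue) and 4 KO (red) libraries, with the shape giving the replicate number and the bar the mean ± SD. Cemip is the only panel in which the blue and red points do not overlap, and WT replicate 3, KO replicate 1 and KO replicate 4 lie above the rest for Slc6a13 and Ptgds.

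Per kilobase of exon, the ratio of Col1a1 to Col1a2 lay between 0.942 in WT replicate 3 and 1.64 in WT replicate 2, while either gene alone ranged 3.87-fold and 3.99-fold. The ratio of Col1a1 to Col3a1 lay between 2.22 in WT replicate 2 and 5.17 in KO replicate 2. WT replicate 2 thus had the most Col1a1 for its Col1a2 and the most Col3a1 for its Col1a1. That library also stood apart in other genes of the matrix and its receptors: Timp1, a metalloproteinase inhibitor, was at 8.85 CPM there and at 0.0992 to 0.512 CPM in the other 7. Cd44, the hyaluronan receptor, was at 48.25 CPM there and at 2.53 to 8.0 CPM in the others, and Mfap4, a microfibril protein, at 13.3 against 3.60 to 5.535 CPM. WT replicate 2 stood apart outside the matrix too. Neurod2, a marker of hippocampal neurons, was at 185.2 CPM there and at 92.56 to 121.1 CPM in the others. The filament gene Vim was at 104.5 against 39.87 to 77.01 CPM. Among WT libraries, Dclk3 was at 39.3 CPM there and at 20.84 to 23.46 CPM in the others. Not every gene did so: Bmpr1a, a BMP receptor gene, was at 95.63 against 90.03 to 98.03 CPM. The relation of any of these levels to the collagen values of WT replicate 2 was not tested.

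The proteoglycans differed from each other. Lum (ENSMUSG00000036446, 10:97565128 to 97572703, plus strand) encodes lumican, a keratan sulfate proteoglycan that binds collagen fibrils. It stood at 7.68, 10.2, 13.6 and 6.28 CPM in WT and at 10.2, 7.44, 6.75 and 13.3 CPM in KO. Its 4 highest libraries were those of the collagens, and the genotype means were nearly equal, at 9.45 ± 3.22 and 9.43 ± 3.001 CPM (log2 fold change -0.00, SE 0.28; edgeR adjusted p = 0.9995). Dcn (ENSMUSG00000019929, 10:97479609 to 97518143, plus strand) encodes decorin, which regulates fibril diameter and binds growth factors. It stood at 57.9, 54.2, 128 and 75.7 CPM in WT and at 83.15, 64.3, 58.8 and 76.9 CPM in KO. WT replicate 3 stood alone at the top, 1.54-fold above KO replicate 1, and WT replicate 2, high for the collagens, was the lowest of all 8.

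Dcn and Lum lie 46984 bases apart on the same strand of chromosome 10, followed by Kera and Epyc, further genes of the small leucine-rich family. Kera had at most 5 counts and Epyc at most 11 counts in a library, so neither passed the filter. Per kilobase, Dcn exceeded Lum by between 2.22-fold in WT replicate 2 and 5.06-fold in WT replicate 4. The log2 fold change of Dcn was -0.16 (SE 0.27; edgeR adjusted p = 0.927), and without WT replicate 3 it was 0.185.

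Cemip (ENSMUSG00000052353, 7:83932857 to 84086502, minus strand) encodes a protein that binds hyaluronan and promotes its breakdown. It stood at 36.1, 34.35, 36.4 and 39.6 CPM in WT and at 48.95, 42.3, 41.4 and 54.5 CPM in KO. All 4 KO libraries lay above all 4 WT libraries, and the nearest pair were KO replicate 3 at 41.4 CPM and WT replicate 4 at 39.6 CPM. KO replicates 1 and 4 were the highest, while WT replicates 2 and 3, high for the collagens, were not raised among the WT libraries. The log2 fold change of 0.35 (SE 0.09) amounts to a 1.28-fold higher level in KO, with an unadjusted p of 0.00281 and an edgeR adjusted p of 0.796, so the gene was not called. Of the genes tested, 305 (1.88%) had all KO libraries above all WT libraries, and 643 (3.96%) had an unadjusted p under 0.05 with a higher level in KO. Among the 10 genes, Cemip alone met either condition.

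The Cemip difference kept its sign in each of the 20 alternative analyses, between 0.26 and 0.41. The alternative with an adjusted p threshold of 0.1 used the main fit, so its value could not change. Because all KO libraries lay above all WT libraries, leaving out a library could not reverse the sign, and those values repeat that separation. No alternative called Cemip, with a lowest adjusted p of 0.2825 by edgeR when KO replicate 4 was left out. With a score of the other fibroblast and meningeal genes as a covariate, chosen after the data were seen, it was 0.33. With a choroid plexus score as a covariate it was 0.38. The hyaluronan synthase gene Has2, from the list of partner genes, was at 0.501, 1.37, 0.546 and 0.709 CPM in WT and at 0.299, 0.364, 0.657 and 0.416 CPM in KO. A single count was 0.0272 to 0.0346 CPM, so these levels rest on few counts. The genotypes overlapped, WT replicate 2 alone was above 1 CPM, and the log2 fold change of -0.86 (SE 0.39) was not called (edgeR adjusted p = 0.796).

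**Figure D2:**
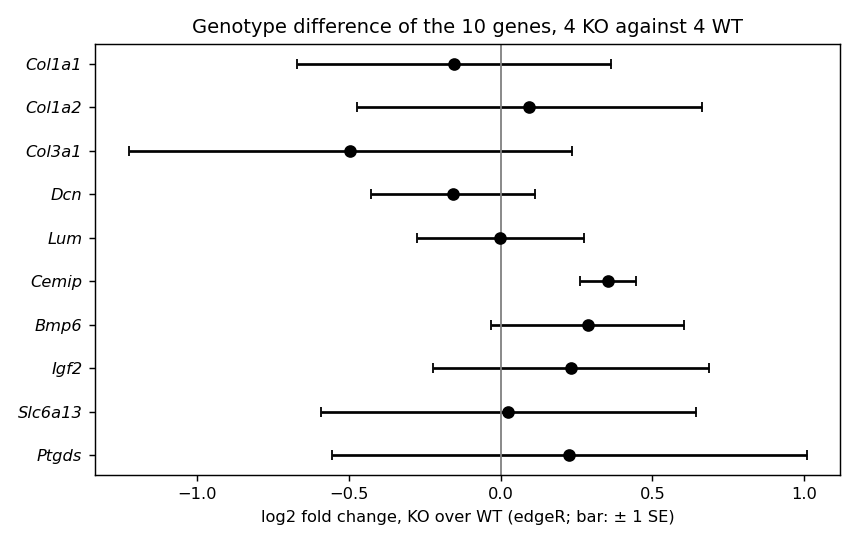
Log2 fold change of KO over WT (x axis) with 1 SE either side for each of the 10 genes, from edgeR over 4 KO and 4 WT libraries. The bar of Cemip, at 0.35, lies to the right of 0 and is the shortest, and the bars of Col3a1 and Ptgds are the longest.

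The growth factor genes shared a library order of their own. Bmp6 (ENSMUSG00000039004, 13:38345107 to 38500302, plus strand) encodes a bone morphogenetic protein that signals through SMAD proteins. It stood at 5.40, 7.855, 15.0 and 5.84 CPM in WT and at 10.4, 10.7, 7.65 and 12.7 CPM in KO. Igf2 (ENSMUSG00000048583, 7:142650766 to 142666816, minus strand) encodes insulin-like growth factor 2, which meninges and choroid plexus release into the cerebrospinal fluid. It stood at 76.65, 112.5, 262 and 62.75 CPM in WT and at 157.5, 183, 106 and 157 CPM in KO. For both genes WT replicate 3 was highest, KO replicates 1, 2 and 4 came next, and WT replicates 1 and 4 were lowest, so that the genotypes overlapped.

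KO replicate 2, low for the collagens, was thus the second highest library for Igf2. Its summed choroid plexus markers were the highest of all libraries, at 5015 CPM. WT replicate 2, the next highest at 3726 CPM, had 112.5 CPM of Igf2, below KO replicates 1 and 4, whose choroid plexus sums were 480.0 and 605 CPM. The part of choroid plexus in the Igf2 levels was not tested. The log2 fold change of Igf2 was 0.23 (SE 0.46; edgeR adjusted p = 0.939) and that of Bmp6 0.29 (SE 0.32; edgeR adjusted p = 0.877). With 1 library left out, the values ran from 0.00497 without WT replicate 4 to 0.85 without WT replicate 3 for Igf2, and from 0.117 without WT replicate 1 to 0.71 without WT replicate 3 for Bmp6, and neither gene was called. Both keep a limit from overlapping genes: Igf2 shares 3596 exon bases with Gm49394 on the same strand, which is not among the genes of the table, and Bmp6 shares 224 with Txndc5 on the opposite strand. Whether counting used strand is not given in the sources used here, and the reads of these stretches are uncertain.

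Slc6a13 (ENSMUSG00000030108, 6:121300227 to 121337733, plus strand) encodes GAT2, a transporter for GABA and taurine. It stood at 10.1, 10.1, 45.45 and 11.1 CPM in WT and at 22.6, 11.3, 12.5 and 31.5 CPM in KO. Ptgds (ENSMUSG00000015090, 2:25466709 to 25470046, minus strand) encodes lipocalin-type prostaglandin D synthase, an abundant protein of cerebrospinal fluid. It stood at 306, 274, 1554 and 225 CPM in WT and at 883, 302, 345 and 1229 CPM in KO. For both genes the libraries formed a high set of WT replicate 3, KO replicate 4 and KO replicate 1 and a low set of the other 5. The gap between the sets was 1.81-fold for Slc6a13 and 2.56-fold for Ptgds.

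WT replicate 2 belonged to the low set for both genes, unlike for the collagens: per kilobase, its ratio of Col1a2 to Slc6a13 was 0.674, against 0.220 to 0.393 in the other 7 libraries. The ratio of Ptgds to Slc6a13 per kilobase lay between 35.5 and 68.8, a range of 1.94-fold, while Ptgds alone ranged 6.915-fold. The KO over WT log2 difference was 0.02 (SE 0.62) for Slc6a13 and 0.23 (SE 0.78) for Ptgds, with edgeR adjusted p = 0.997 and 0.966. Without WT replicate 3, the highest library of both, the values were 0.905 and 1.37, and neither gene was called. Oligodendrocytes also make Ptgds, and their summed markers were at 3618 CPM in WT replicate 3, the lowest of the 8 libraries, where Ptgds was highest. In KO replicates 1 and 4 they were at 4419 and 4412 CPM. WT replicate 2 was near the lowest, at 3684 CPM, with Ptgds at 274 CPM. The part of oligodendrocytes in the Ptgds levels was not tested.

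**Figure D3:**
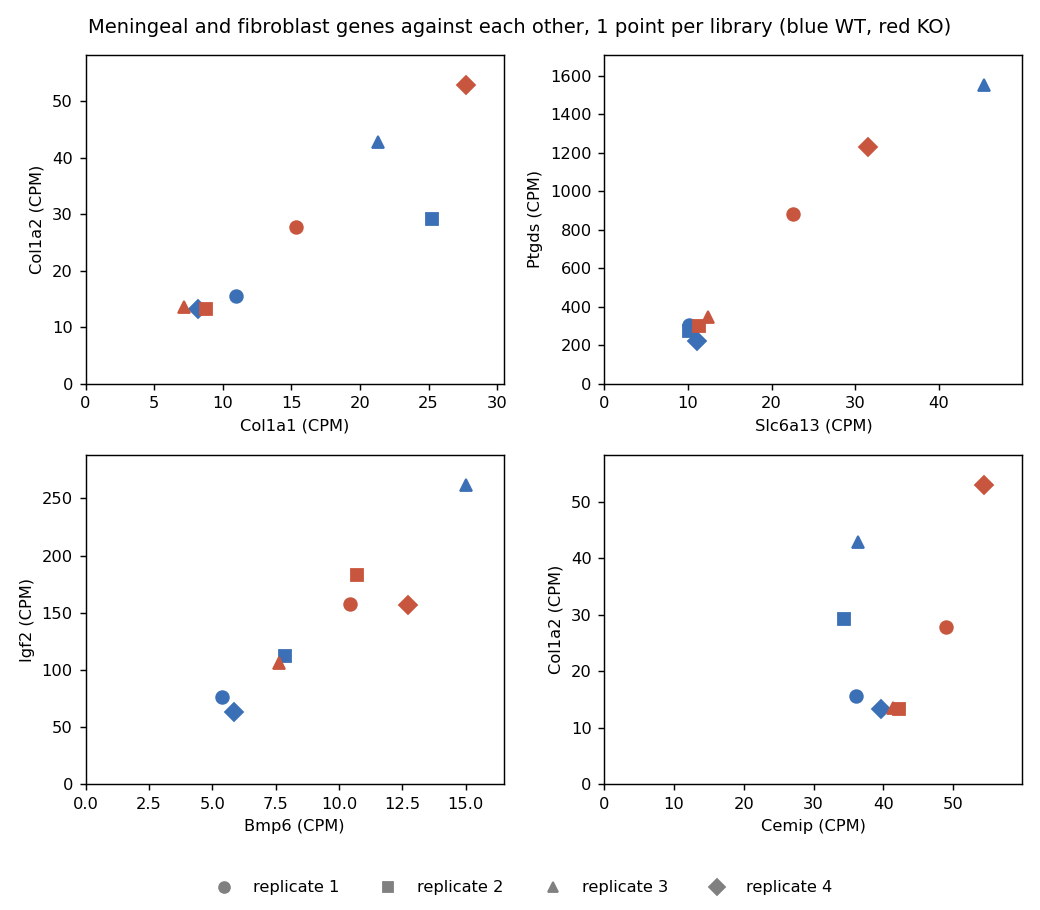
CPM of one gene against another (both axes from 0) for Col1a1 and Col1a2, Slc6a13 and Ptgds, Bmp6 and Igf2, and Cemip and Col1a2, with 1 point per library, blue for WT, red for KO and the shape giving the replicate. Slc6a13 and Ptgds show 3 libraries apart from 5, and Bmp6 and Igf2 lie along a line. All KO libraries lie above all WT libraries in Cemip. Within KO, replicates 4 and 1 are the highest for both Cemip and Col1a2.

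The 10 genes were ordered by level per kilobase of annotated exon, averaged over the 8 libraries. The length merges the exons of all annotated transcripts, 6563 bases for Col1a1 and 12426 for Col1a2. The order, like the ratios per kilobase above, therefore depends on the annotation. In CPM, Col1a2 exceeded Col1a1 in every library. Ptgds came first at 388 ± 313 CPM per kilobase, then Igf2 at 24.4 ± 11.3, Dcn at 12.8 ± 4.10, Slc6a13 at 6.66 ± 4.49 and Lum at 3.855 ± 1.18. Cemip followed at 3.41 ± 0.565, then Bmp6 at 2.42 ± 0.863, Col1a1 at 2.38 ± 1.24, Col1a2 at 2.10 ± 1.22 and Col3a1 at 0.786 ± 0.5705 CPM per kilobase (SD over 8 libraries). Neighbours within the run Slc6a13, Lum and Cemip, and within the run Bmp6, Col1a1 and Col1a2, differed by less than the larger of their SDs.

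Covariation was then counted over libraries. The correlation of log2 CPM was computed for the 45 pairs of the 10 genes over 8 libraries that all pairs share. It was above 0 in all 45 pairs, and 16 pairs passed an exact two-sided permutation test with Benjamini-Hochberg adjustment. Pairs of other genes were not counted, so these counts have no background share beside them and are a description. For Col1a2, Col3a1, Lum, Slc6a13 and Ptgds, however, the libraries fell into a high and a low set, by a rule chosen after the data were seen, so no coefficient is given for their 35 pairs and their library sets are described instead. Among the other 10 pairs, 1 passed: Bmp6 and Igf2 had a Pearson r of 0.958 (exact permutation p = 0.00062, adjusted p = 0.00893) and a Spearman rho of 0.905 (exact permutation p = 0.00456, adjusted p = 0.0411).

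Without the 2 libraries farthest from the median of Bmp6, its r with Igf2 was 0.932 (exact permutation p = 0.0125, adjusted p = 0.0703). Within genotypes, on deviations from the genotype means, r was 0.953, with an adjusted p of 0.0601 by permutation. With any 1 library left out it was 0.937 to 0.981 and passed each time. The 4 pairs of Cemip with Bmp6, Dcn, Col1a1 and Igf2 had r = 0.426, 0.149, 0.143 and 0.251, with adjusted p of 0.366 to 0.741 by exact permutation. Dcn with Bmp6 had r = 0.678 (adjusted p = 0.11 by exact permutation).

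**Figure D4:**
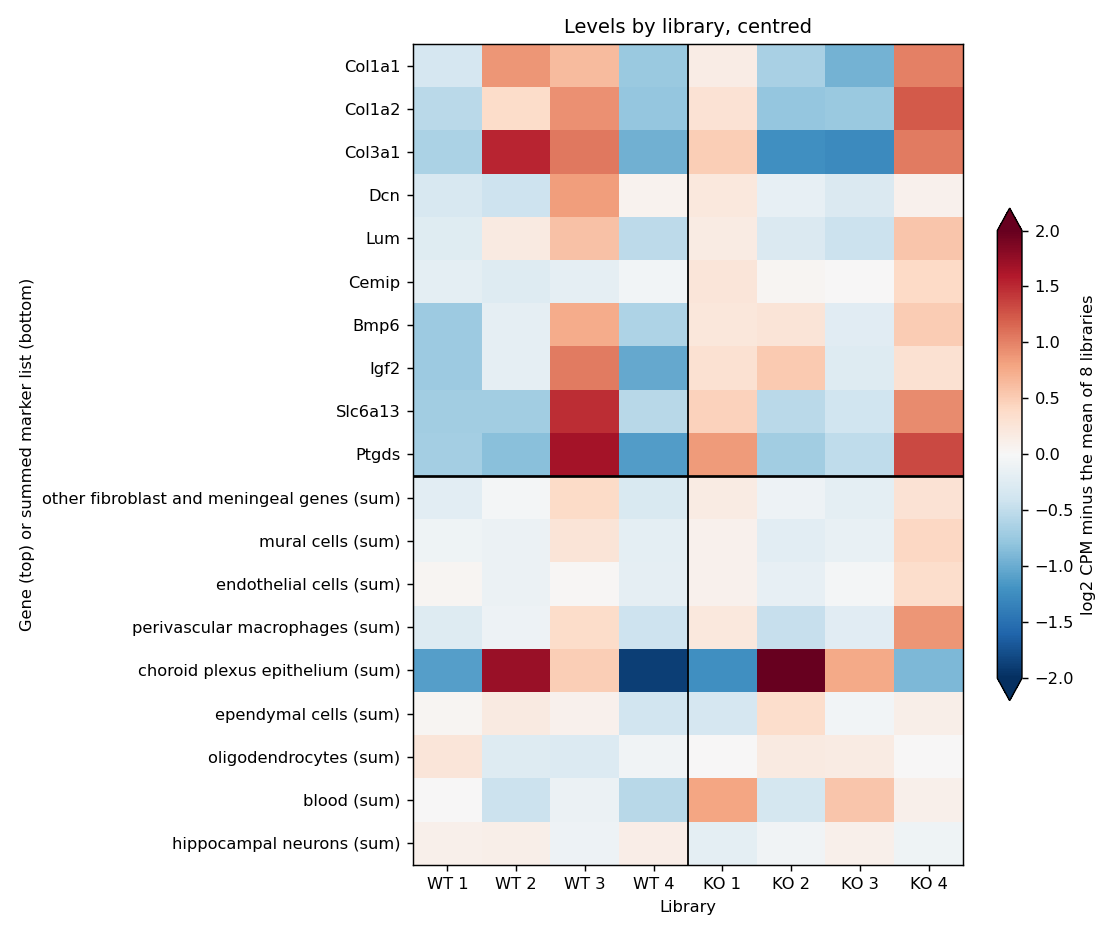
Log2 CPM minus the mean over the 8 libraries (colour scale, red above and blue below the mean, from -2 to 2) for the 10 genes and, under the line, for summed marker lists, in the 4 WT and 4 KO libraries. WT replicate 3, KO replicate 1 and KO replicate 4 are red for most of the 10 genes, while the choroid plexus sum is highest in KO replicate 2 and WT replicate 2.

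Library sets were compared over all genes. WT replicate 3, KO replicate 1 and KO replicate 4 were the 3 highest libraries for Dcn, Slc6a13 and Ptgds, and these together with WT replicate 2 were the 4 highest for Col1a1, Col1a2, Col3a1 and Lum. The sets were read from these genes, so their own counts are a description. Of all genes tested, 453 (2.79%) had the first set as their 3 highest libraries and 355 (2.19%) had the second as their 4 highest. In a list of other fibroblast and meningeal genes, 29 of 55 tested genes (52.7%) had the first set and 26 (47.3%) the second. The shares were 7 of 10 and 4 of 10 for perivascular macrophage markers, 6 and 4 of 12 for mural cells, and 4 and 2 of 12 for endothelial cells. For choroid plexus epithelium (20 genes), oligodendrocytes (10), ependymal cells (9), blood (5) and hippocampal neurons (12), both counts were 0. The summed neuron markers lay the other way: they were lowest in KO replicate 1 (1209 CPM), WT replicate 3 (1291 CPM) and KO replicate 4 (1307 CPM), the first set. They were between 1320 CPM, in KO replicate 2, and 1513 CPM in the other 5 libraries. Single neuron genes did not all follow the sum: Prox1 was highest in KO replicate 4 (130 CPM) and lowest in WT replicate 3 (97.8 CPM). In the permutation tests with cell type sums described below, no relation with the neuron sum passed after adjustment. The part of neurons in the levels of the 10 genes was not tested.

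The other fibroblast and meningeal genes summed to 924, 1036, 1396 and 864 CPM in WT and to 1201, 990.5, 936 and 1300.0 CPM in KO. WT replicate 3, KO replicate 4 and KO replicate 1 were the highest, and the genotypes overlapped. In the comparison of genotypes 36 of the 55 had a log2 fold change above 0 and 19 below, with a median of 0.09 beside 0.00 over all genes tested. None was called, and none had an unadjusted p under 0.05. The spread of 36 of the 55 lay above the 90th percentile of all tested genes, as did that of 7 of the 10 genes described here. Gjb6, a gap junction gene shared with astrocytes, was at 53.9 ± 10.1 and 64.6 ± 12.8 CPM in WT and KO, and the filament gene Vim at 66.05 ± 27.7 and 56.2 ± 15.4 CPM. Some of the most abundant genes of that list, such as Igfbp5 and Pdgfra, are also made by other brain cells.

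Markers of perivascular macrophages, which live beside these fibroblasts, summed to 32.4, 36.1, 49.5 and 28.8 CPM in WT and to 44.8, 28.0, 32.9 and 71.0 CPM in KO. Their 3 highest libraries were KO replicate 4, WT replicate 3 and KO replicate 1. Mrc1, their mannose receptor, reached 9.83 CPM in WT replicate 3 and 12.3 CPM in KO replicate 4, against 3.56 to 6.75 CPM in the others. Among mural cell genes the contractile Acta2 reached 61.5 and 67.1 CPM in the same libraries, against 19.8 to 46.0 CPM elsewhere. Vtn, also on the mural list, was at 127, 104 and 117 CPM in WT replicate 3, KO replicate 1 and KO replicate 4. In the other libraries it was at 73.4 to 83.35 CPM. The pericyte gene Rgs5 lay between 145 and 181.5 CPM throughout. Of the 12 mural genes, 6 had those 3 libraries highest. Of 80 relations of the 10 genes with 8 cell type sums, 3 passed the exact permutation test after adjustment, all with sets that stood apart, and 0 of the 15 relations without such sets did. The largest of those 15 was Col1a1 with perivascular macrophages (r = 0.798, exact permutation p = 0.0154, adjusted p = 0.123).

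Choroid plexus markers followed another library order. They summed to 523, 3726, 1580 and 305 CPM in WT and to 480.0, 5015, 1917 and 605 CPM in KO. WT replicate 3, the highest library for Ptgds and Slc6a13, held 1580 CPM of these markers and was not among the 4 lowest libraries. KO replicates 1 and 4, also high for both genes, were among the 4 libraries lowest in choroid plexus markers. Ttr, the defining transcript of that epithelium, was at 140.5 and 176 CPM in these libraries and at 3158 CPM in KO replicate 2, where Ptgds was at 302 CPM. Of the 20 markers 17 lay higher in KO with a median log2 fold change of 0.29, and none was called. Blood markers, all 5 with an unadjusted p under 0.05 and higher in KO, summed to 69.2 to 102 CPM in WT and 79.0 to 174 CPM in KO. None of the 5 was called, and 3.96% of all genes tested met the same condition. KO replicate 2, at 79.0 CPM, lay within the WT range. KO replicate 1 held the most blood transcripts and KO replicate 3 the next most, at 149 CPM, where Ptgds and Slc6a13 were low. The part of choroid plexus and blood in the levels of the 10 genes was not tested.

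**Figure D5:**
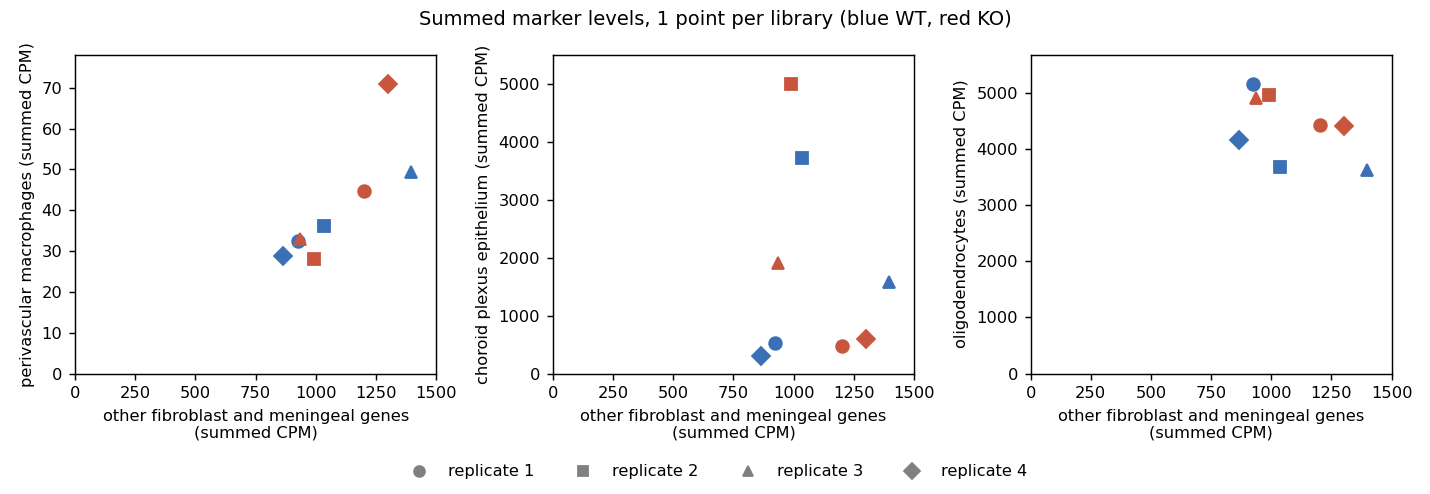
Summed CPM of perivascular macrophage, choroid plexus and oligodendrocyte markers (y axes, from 0) against summed CPM of the other fibroblast and meningeal genes (x axes, from 0), 1 point per library, blue for WT, red for KO and the shape giving the replicate. The 3 libraries with the most CPM of fibroblast genes are also the 3 highest in macrophage markers. Of these, KO replicates 1 and 4 hold 480.0 and 605 CPM of choroid plexus markers, and WT replicate 3 holds 1580 CPM.

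The genes that work with the 10 were described from lists by role. Of 33 genes of collagen assembly and turnover, 20 had a log2 fold change above 0, the median was 0.05, and 1 had an unadjusted p under 0.05: Plod2, a collagen lysyl hydroxylase, at 5.25 ± 0.5775 CPM in WT against 7.43 ± 0.902 CPM (log2 fold change 0.50, SE 0.12; edgeR adjusted p = 0.796). Bmp1, the procollagen C-proteinase, was at 24.6 ± 3.35 and 31.1 ± 6.71 CPM, and Sparc, a collagen-binding protein, at 394 ± 27.9 and 394 ± 56.7 CPM. Fn1, fibronectin, reached 170 CPM in KO replicate 4, against 54.95 to 94.6 CPM in the others. Of these 33 genes, 5 (15.2%) had the 3 highest libraries of Ptgds and 9 (27.3%) the 4 highest of the collagens. Over all genes tested the shares were 2.79% and 2.19%. Col5a1, Col5a2, Pcolce, Bgn and Fmod are also on the list of other fibroblast and meningeal genes, so the counts of the lists are not separate.

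Of 33 genes of BMP and IGF signalling, 16 lay above and 17 below 0, with a median of -0.01 and 0 genes at an unadjusted p under 0.05. The SD of log2 CPM lay at the 93.8th percentile of tested genes for Bmp6 and at the 97.7th for Igf2, and lower for the receptors described here. Bmpr1a, a type I BMP receptor, stood at 92.9 ± 2.07 and 93.6 ± 3.33 CPM, with a spread at the 0.696th percentile. Igf1r, the IGF1 receptor that also binds Igf2, stood at 76.6 ± 6.71 and 79.6 ± 19.7 CPM, with a spread at the 70.2nd percentile. Acvr1, another type I receptor, stood at 51.7 ± 10.8 and 43.9 ± 4.47 CPM, with a spread at the 69.7th percentile, and Smad4, the shared SMAD partner, at 52.8 ± 1.69 and 48.6 ± 4.25 CPM. Igfbp3, an IGF-binding protein, was at 14.5 ± 2.39 CPM in WT against 12.1 ± 1.09 CPM (log2 fold change -0.26, SE 0.12; edgeR adjusted p = 0.796).

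Among 19 tested partners in GABA transport, hyaluronan and prostaglandin metabolism, 11 lay above and 8 below 0, with a median of 0.03, and Has2 alone had an unadjusted p under 0.05. Over all genes tested, 6.16% had such a p. Slc6a11, a GABA transporter gene of astrocytes, had another library order than Slc6a13: it lay between 178 and 266 CPM, with KO replicate 1 the highest library and WT replicate 2 the lowest. Hpgds, the other prostaglandin D synthase, was at 7.26 ± 0.357 and 8.19 ± 0.596 CPM. Ptges, a prostaglandin E synthase, ranged from 3.81 to 6.59 CPM with KO replicate 4 and WT replicate 3 highest.

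Genes outside the 10 whose pattern was most like their mean were ranked by Pearson r over the 8 libraries with the mean of the standardized log2 CPM. The measure was computed for 14172 genes, of which 110 (0.776%) had r above 0.9, with 19 of 52 genes of the fibroblast list among them, and r had a median of -0.0452. The 10 highest were Ppic, Islr, Aebp1, Cyp1b1, Arhgap29, Anpep, Serping1, Adgra2, Kirrel and Colec12, with r from 0.987 to 0.975. Islr, Cyp1b1 and Serping1 were on the fibroblast list and Anpep on the mural list. Aebp1 stood at 13.02, 24.1, 46.8 and 11.1 CPM in WT and at 26.5, 15.8, 12.3 and 44.0 CPM in KO, with the genotypes overlapping. Islr stood at 14.7, 16.7, 34.4 and 12.8 CPM in WT and at 22.9, 15.6, 15.1 and 29.95 CPM in KO. Leaving out any 1 library left r at 0.964 or more for each of the 10. These genes were picked for a high r out of many, so the coefficients are descriptions.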

How the data were processed

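Poly(A) RNA of 8 hippocampus libraries was sequenced, 4 from Dclk3 KO and 4 from WT mice. The authors deposited raw read counts per Ensembl gene without normalization. The submitters' processing notes name bcl2fastq 2.17.1.14 and the build mm10. The aligner, counter, annotation release and strand setting were not given in these sources. Symbols were found for 31292 of 31417 IDs. Positions came from GENCODE M21.

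The genotypes were compared with edgeR 4.0.16 under R 4.3.3 (filterByExpr, TMM, robust quasi-likelihood F test, Benjamini-Hochberg adjustment over 16228 genes). SE is the log2 fold change over the square root of F. Correlations used log2 CPM with a prior count of 2. Alternatives were DESeq2 1.42.0, limma 3.58.1 (voom with quality weights), other scalings and filters, a replicate block, covariates and left-out libraries. Scripts were tested on simulated data. One count was 0.0272 to 0.0346 CPM. No pair of libraries of a genotype agreed within sampling noise (chi-square per degree of freedom 8.85 to 40.9). The labels' protocols name no molecular identifiers, so PCR copies may be counted, and intervals cover counting error only.

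The 10 genes and the lists were chosen with earlier results of these data known. Named were the 10 genes, Dclk3, up to 4 genes with the lowest p and 4 with the highest level per list, and the 10 genes most like the mean. Other names were chosen after their values were seen. Values of 1 gene that this rule names are not reported here.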

Additional observations from a re-analysis of the deposited data

Results flagged for a closer look

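Within each genotype the highest or lowest of the 4 values was set against the others by Dixon's criterion, which compares its gap to the nearest value with the range. Chance meets this in about 1 in 20 groups, and 4 of 44 groups met it. WT replicate 3 stood apart for Slc6a13, at 45.45 CPM beside 10.1 to 11.1 CPM in the other WT libraries, and for Ptgds, at 1554 CPM beside 225 to 306 CPM. The same library had the lowest sum of hippocampal neuron markers in WT, at 1291 CPM beside 1476 to 1513 CPM. KO replicates 1 and 4, the other libraries high for both genes, had the lowest neuron sums in KO, at 1209 and 1307 CPM beside 1320 and 1486 CPM. In KO, the summed partners of GABA transport, hyaluronan and prostaglandin metabolism stood apart in KO replicate 1, at 1156 CPM beside 1038 to 1053 CPM.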

How the results depend on the processing

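No alternative called any of the 10 genes or any of the other fibroblast and meningeal genes. Genes called among all tested, 0 by edgeR, were 5 by DESeq2 and 1 with a replicate block (Dclk3), and 0 to 1 with a library left out (Dclk3 without WT replicate 2, Col6a4 without WT replicate 3, 1520401A03Rik without WT replicate 1, C78859 without KO replicate 4). The 1000 genes at an unadjusted p under 0.05 became 1505 by limma-voom and 556 to 1777 with a library left out. Without WT replicate 4 or KO replicate 2 there were 556 and 640, and without KO replicate 4 there were 1777.

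Of the alternative log2 fold changes of the 10 genes, 170 kept their direction and 30 reversed, all without a call. The 170 include the values at an adjusted p threshold of 0.1, which came from the main fit and could not reverse. Igf2 (0.00497 to 0.85), Bmp6 (0.117 to 0.71) and Cemip (0.26 to 0.41) kept theirs throughout. For Cemip no left-out library could have reversed it, because its genotypes did not overlap. Lum, at -0.00, became 0.0127 with upper quartile factors, 0.0148 with library totals, 0.00578 with the 1 CPM filter, 0.0053 with the replicate block and 0.00183 with the choroid plexus score. Col1a2 became -0.18 and Slc6a13 -0.0375 by limma-voom, and -0.19 and -0.0316 with the fibroblast score, which was chosen after the data were seen. With a library left out, values lay between -0.30 and 0.185 for Dcn, -0.65 and 0.13 for Col1a1, -0.465 and 0.48 for Col1a2, -1.0 and 0.0105 for Col3a1, -0.22 and 0.23 for Lum, -0.31 and 0.905 for Slc6a13, and -0.21 and 1.37 for Ptgds.

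The 16 gene pairs that passed became 5 by Spearman, 0 on deviations from genotype means, 0 without the 2 farthest libraries and 2 to 18 with a library left out. Within genotypes no p can fall below 0.00174, and over 6 libraries none below 0.00139. The 3 relations with cell type sums became 0 by Spearman, 5 with library totals, 0 on deviations, 0 without the 2 farthest libraries and 0 to 10 with a library left out (10 without WT replicate 2). The correlation of Cemip reversed with Dcn (-0.0832) and Col1a1 (-0.854) without the 2 farthest libraries, with Igf2 (-0.0523) on deviations, and with a library left out ran from -0.0555 to 0.793 for Dcn and -0.388 to 0.453 for Col1a1. That of Bmp6 and Igf2 kept its direction at 0.953 on deviations and 0.932 without the 2 farthest libraries, past the threshold in neither. The causes were not tested.

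Deviations of same-numbered libraries of the 2 genotypes had correlations of 0.139, 0.116, -0.219 and -0.0142, and 2 of 8 libraries correlated best with their own number. With so few pairs, these values cannot decide whether same-numbered libraries share a litter or a day, which the labels do not state. Correlations within a replicate block were not run, because the block leaves 4 independent values. Depth limits Col3a1 most, with 71 counts in its lowest library. The number of libraries limits the genotype comparison, with an SE of 0.73 for Col3a1 and 0.78 for Ptgds.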
